A study of Homo sapiens with 6 samples.

Results

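Versican (VCAN) and hyaluronan synthase 3 (HAS3) were followed on arrays of colon fibroblasts with and without sonic hedgehog (SHH). The members are these 2 of 1633 genes with a name, read by the probe sets called VCAN (there by its older symbol CSPG2) or HAS3 in the authors' deposited table of the 2411 probe sets (4.41% of all) whose p was 0.05 or lower. That gave 5 probe sets for VCAN and 1 for HAS3, out of 54613 on each array. In the authors' deposited table the p-values of the 6 ran from 6.14e-05 to 1.07e-04, ranks 4 to 15 of all probe sets, and the q-value was 0.392 for each. These values chose the members, so the levels and differences of both genes are given below as a description. Limma's calls on them are counted beside the share over all probe sets, and are no test of these genes. Every member lies far inside the limit of 0.05, and no probe set outside it carries a name here. Further probe sets for either gene can be on the arrays without being named.

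The cells were CCD-18Co, an established human line of colon fibroblasts that the design text calls myofibroblasts. They were kept in medium with 0.1% BSA. In the SHH group, 3 biological replicates received 1 ug/ml SHH for 72 h, and 3 replicates without SHH formed the untreated group, which the authors' readme calls vehicle. How long the untreated cells were cultured is not given, and a single cell line stands for the tissue.

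Versican is a large secreted proteoglycan of the lectican family. It binds the polysaccharide hyaluronan at its amino-terminal end, carries chondroitin sulfate chains along its middle and is spliced into isoforms that differ in that middle part. HAS3 is one of the HAS enzymes of the plasma membrane, which polymerise hyaluronan from UDP-sugars and push the chain out of the cell. In the pericellular coat of fibroblasts, hyaluronan and versican bind each other, and the hyaluronan receptor CD44 holds the complex at the cell surface. SHH acts through the receptor PTCH1, the transducer SMO and the GLI transcription factors.

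The sequence just upstream of each gene's start is shown because the transcripts of both genes differed, in opposite directions, between cells with and without a ligand whose transcription factors bind DNA. The windows are the 250 bases before the RefSeq start on GRCh38.p14, 5′ to 3′, in lower case with the motif matches in capitals, and both genes were found in the RefSeq table:
VCAN, chr5:83471494-83471743, plus strand: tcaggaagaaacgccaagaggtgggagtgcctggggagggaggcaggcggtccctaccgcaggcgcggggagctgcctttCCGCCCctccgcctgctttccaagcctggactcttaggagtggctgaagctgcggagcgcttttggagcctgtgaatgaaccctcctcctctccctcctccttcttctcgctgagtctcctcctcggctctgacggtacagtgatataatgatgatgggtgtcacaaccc
HAS3, chr16:69107290-69107539, plus strand: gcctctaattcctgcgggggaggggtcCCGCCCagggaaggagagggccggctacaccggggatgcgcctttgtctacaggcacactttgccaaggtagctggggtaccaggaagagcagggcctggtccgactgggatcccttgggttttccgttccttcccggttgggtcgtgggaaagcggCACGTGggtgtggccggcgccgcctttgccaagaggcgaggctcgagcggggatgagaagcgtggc
The capitals mark GC boxes (GGGCGG, read here on the opposite strand as CCGCCC), which lie 170 to 165 bases before the VCAN start and 223 to 218 bases before the HAS3 start, and in HAS3 also an E-box (CACGTG) at 66 to 61 bases before the start. Both strands were searched, and the motifs do not overlap each other, apart from the GLI core inside the GLI consensus. A GC box is present in 42.6% and the E-box in 6.34% of the windows of the same length before 35116 RefSeq starts. Neither window holds the GLI consensus GACCACCCA (0.199% of all windows), its core CCACCC (31.3%), the TATA box letters TATAAA (10.7%) or the TCF/LEF letters CTTTGAA (3.8%). These letters are absent from these windows, which says nothing of sites elsewhere. The GC content is 60.8% for VCAN and 66.0% for HAS3, and the median of all windows is 58.0%. The HAS3 start used by the table lies 24056 bases inside the annotated gene, so that other starts of HAS3 are not covered.

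VCAN signal was higher with SHH on all 5 probe sets, by 3.54-fold to 4.79-fold, and HAS3 signal was 3.40-fold lower. The signal is a linear intensity without a unit, and the fold changes are on the log2(signal + 16) scale. The brightest VCAN probe set, 221731_x_at, read 2255, 1683 and 1827 in untreated replicates 1, 2 and 3 and 6147, 7247 and 7052 in SHH replicates 1, 2 and 3. The lowest SHH array was thus above the highest untreated array, by 1.44 on the log2 scale. The mean went from 1922 ± 297 to 6815 ± 587 (SD, n = 3), a log2 difference of 1.82 ± 0.15. The ± after a log2 difference stands for the moderated SE of limma (a linear model fitted to every probe set), for which the spreads of all probe sets are pooled in part. The x in its name is Affymetrix's mark for a probe set that may also bind other transcripts, and the s in the other VCAN names is the mark for probes that several transcripts share. The x mark is also on every named probe set of PTN, MYH11 and KRT18 below, and on some of CD44, ACAN, HABP4 and CSGALNACT2.

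The second VCAN probe set, 204620_s_at, gave 1850, 1322 and 1400 in untreated cells and 4998, 6563 and 6093 with SHH. Its log2 difference was 1.94 ± 0.18, and the groups lay 1.43 apart at their nearest arrays. On both of these bright probe sets untreated replicate 1 was the highest untreated array.

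The third, 215646_s_at, read 633, 729 and 768 in untreated cells and 2699, 3740 and 3263 with SHH, a log2 difference of 2.15 ± 0.16. On 211571_s_at the untreated arrays gave 492, 579 and 481 and the SHH arrays 2034, 2852 and 2786, and its difference of 2.26 ± 0.18 was the highest of the 5. For 204619_s_at the signals were 590, 539 and 564 against 2201, 2642 and 2412, a difference of 2.07 ± 0.12. This probe set, which carries a 3′ mark in the authors' identifier, varied least between untreated arrays, with a coefficient of variation of 4.56% against 9.78% to 18.7% for the other 4.

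HAS3 was read by 1 named probe set, 223541_at. Untreated replicates 1, 2 and 3 gave 2301, 2564 and 2398, and SHH replicates 1, 2 and 3 gave 755, 756 and 603. All SHH arrays were below all untreated arrays, the nearest pair being 1.59 apart on the log2 scale. The mean fell by 1.76 on the log2 scale (SE 0.14), from 2421 ± 133 to 704 ± 88.2 (SD, n = 3). These are levels of RNA in a culture as a whole, where fewer cells with a transcript and less of it per cell cannot be told apart.

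**Figure D1:**
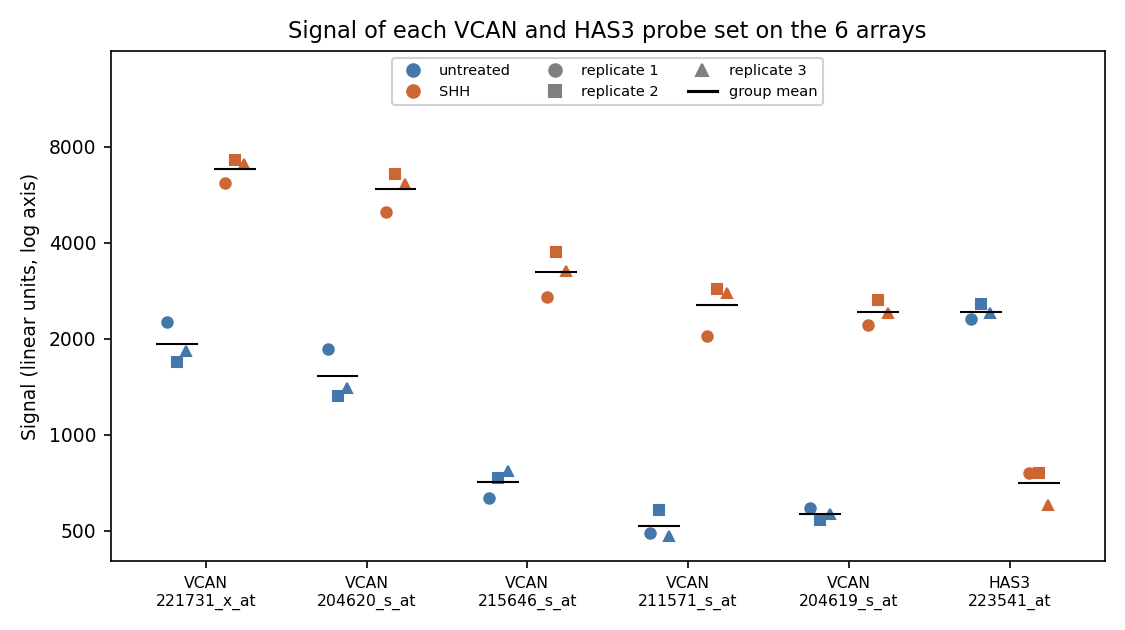
Signal (linear units on a log axis) of the 5 VCAN probe sets and the HAS3 probe set on each of the 6 arrays. Blue is untreated, orange is SHH, the marker shape gives the replicate and the black line the group mean. On each VCAN probe set the SHH arrays lie above the untreated ones, and on HAS3 the SHH arrays, 603 to 756, lie below the untreated ones, 2301 to 2564.

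Set among all 54613 probe sets, the VCAN differences were the 8th, 11th, 12th, 14th and 24th from the top, and 19 other probe sets had a difference at or above the lowest of them. HAS3 was the 15th from the bottom. All differences ran from -2.10 to 3.65 with a median of -0.05. By limma, fitted over the whole table with Benjamini-Hochberg adjustment, 5 of 5 VCAN probe sets and 1 of 1 HAS3 probe set passed the adjusted threshold of 0.05, where 0.123% of all probe sets did (0.0824% higher and 0.0403% lower with SHH). The SHH arrays lay above all untreated arrays in 6.97% of all probe sets and below them in 10.3%. The members were chosen on this same contrast, so nothing is read from these counts. Without any single one of the 6 arrays, or with the replicate number as a block or a pseudocount of 1, limma called none of the 6, and none of all probe sets, with 4411 to 5180 at an unadjusted p under 0.05. The log2 differences themselves stayed between 1.74 and 2.41 for VCAN and between -1.82 and -1.66 for HAS3 when 1 array was left out.

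**Figure D2:**
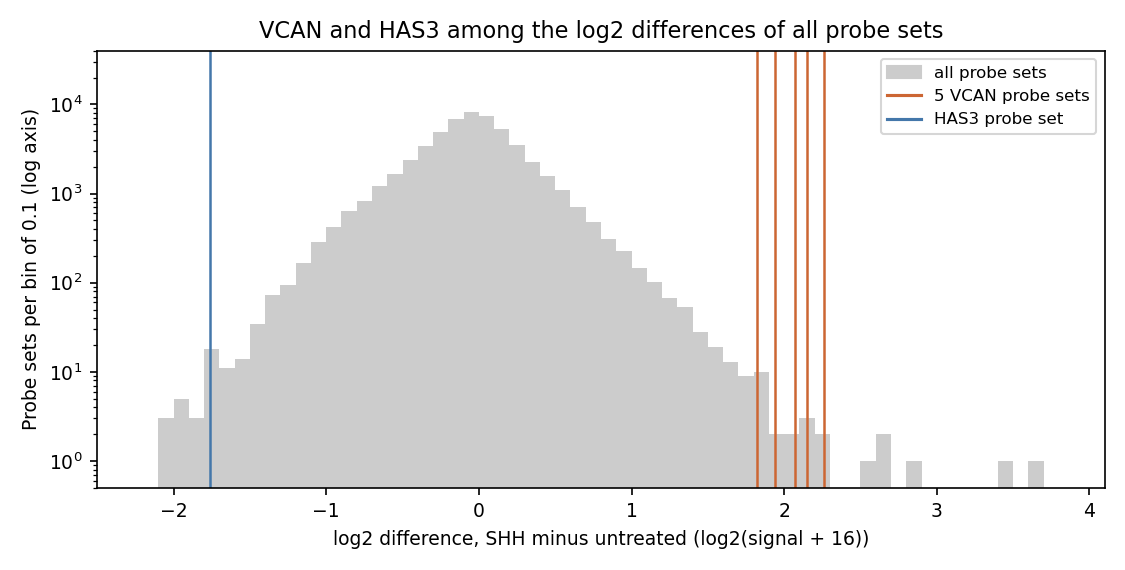
Number of probe sets (log axis) per bin of 0.1 of the log2 difference, SHH minus untreated, over all 54613 probe sets, with the 5 VCAN probe sets as orange lines and HAS3 as a blue line. The VCAN lines stand between 1.82 and 2.26 and the HAS3 line at -1.76, where few probe sets lie.

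Between the arrays of a group the VCAN probe sets shared an order with SHH but not without it. The spread within groups enters the authors' t and so took part in the choice of the probe sets. SHH replicate 1 was the lowest SHH array and SHH replicate 2 the highest on all 5, with deviations from the group mean of -0.31 to -0.13 and of 0.09 to 0.22 on the log2 scale. In the untreated group they had no common order. Replicate 1 was the highest untreated array on 221731_x_at, 204620_s_at and 204619_s_at, at 0.24, 0.29 and 0.06, and it was the lowest on 215646_s_at, at -0.16. On 211571_s_at replicate 2 was the highest, at 0.16. HAS3 followed another order, with SHH replicate 3 the lowest at -0.21.

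Over the 6 arrays, the deviations of 221731_x_at and 204620_s_at had a Pearson correlation of 0.98, and those of 215646_s_at and 211571_s_at one of 0.74. Across these pairs the correlations were 0.04 to 0.34, and 204619_s_at lay between, at 0.55 to 0.86 with each of the others. The deviations of HAS3 correlated with those of VCAN probe sets at -0.48 to 0.06. These are descriptions over 6 arrays, in which probe sets share the array and its scaling, and deviations sum to 0 within each group.

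**Figure D3:**
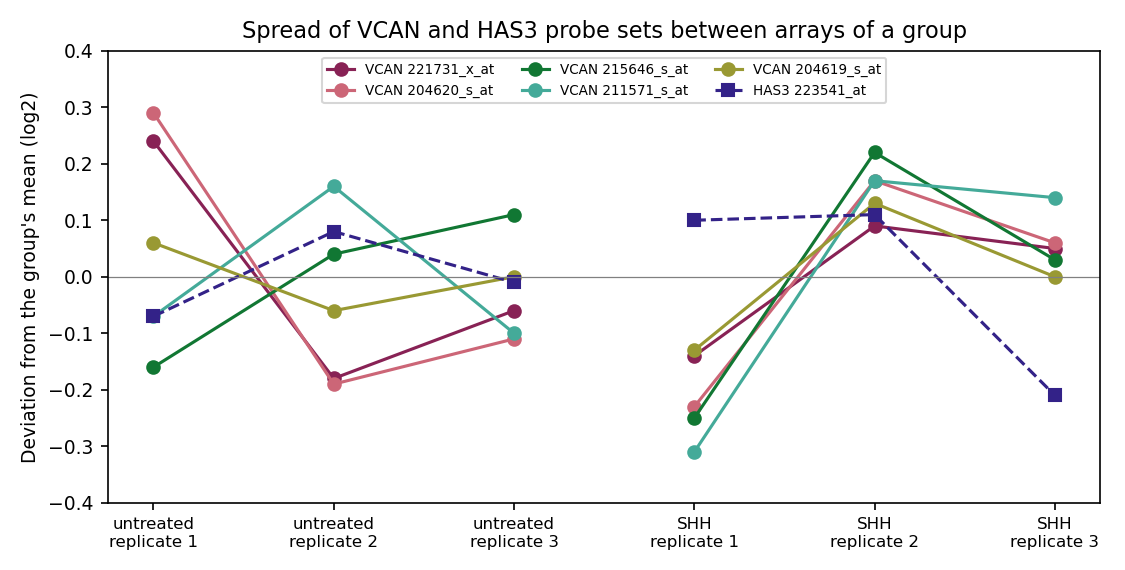
Deviation of each array from the mean of its group (log2(signal + 16)) for the 5 VCAN probe sets (circles, solid lines) and HAS3 (squares, dashed), with lines joining the arrays of a group only to show which points belong together. With SHH all 5 VCAN probe sets are lowest on replicate 1 and highest on replicate 2, while in untreated cells they have no common order.

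The log2 differences of the 5 VCAN probe sets averaged 2.05 with an SD of 0.17 between probe sets, while arrays of a group had SDs of 0.06 to 0.27 on a single VCAN probe set. The widest gap was between 211571_s_at and 221731_x_at, whose log2 ratio within an array was 0.43 higher with SHH. Relative to the untreated mean, that ratio was -0.31, 0.34 and -0.04 in untreated and 0.27, 0.51 and 0.52 in SHH replicates, so the groups overlapped. Of the 10 pairs of VCAN probe sets, the ratio overlapped between groups in 8. It did not for 215646_s_at over 221731_x_at, 0.33 higher with SHH (SD 0.34 untreated and 0.12 with SHH). There the nearest arrays almost touched, at 0.22 in untreated replicate 2 and 0.23 in SHH replicate 1. Nor did it overlap for 204619_s_at over 221731_x_at, 0.24 higher (SD 0.15 and 0.05). Both ratios have the same denominator, and how often such ratios overlap over all probe sets was not computed, so nothing is read from this count. No source used here says which isoform of VCAN a probe set reads, and these pairs were not tested.

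Set against each other within an array, the log2 ratio of VCAN (221731_x_at) to HAS3 was 0.31, -0.26 and -0.05 in untreated replicates 1, 2 and 3, relative to their mean, and 3.34, 3.57 and 3.85 with SHH. The change of 3.59 is the sum of both genes' differences, and the SDs between arrays were 0.29 in untreated and 0.26 in SHH cells. Only the change of this ratio is meaningful, since signals of different probe sets are not on one scale.

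Genes that share a pathway with VCAN and HAS3 were taken from 8 lists of hyaluronan and proteoglycan genes. Apart from VCAN and HAS3 these held 151 genes, of which 34 had a name, 8 higher and 26 lower with SHH by their brightest named probe set. A gene has a name here only through an authors' p at or under 0.05 in these samples, so the other genes are left out and the directions are not independent evidence. By limma, 1 of the 34 passed higher and 2 lower, where 2.45% of 1633 named genes passed (1.59% higher, 0.857% lower). The median log2 difference of the 34 was -0.49 and that of all probe sets -0.05, while that of all named genes, chosen by p in the same way, was 0.22, with 818 higher and 815 lower. No call was made on any of them once 1 array was left out. With an intensity trend, which lets the assumed spread follow the signal, limma called 1.86% of all probe sets (1.01% higher and 0.85% lower) and 39.7% of the named genes.

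Of hyaluronan synthesis and degradation, 3 of 13 genes had a name, all lower: HAS3, CEMIP and HEXA, of which the last 2 did not pass. CEMIP, a protein needed for hyaluronan breakdown in skin fibroblasts, gave 3975, 5763 and 5152 in untreated and 2285, 2504 and 3255 in SHH replicates. The groups did not overlap, and the log2 difference was -0.88 ± 0.21 (limma adjusted p = 0.255, which was 0.0197 under the intensity trend). HEXA, a lysosomal hexosaminidase subunit, lay at -0.48 ± 0.19 (limma adjusted p = 0.507). The other HAS genes have no name here and were not analysed.

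Among hyaluronan receptors and binding proteins 3 of 22 had a name and none passed. CD44, the main hyaluronan receptor of fibroblasts, had 6 named probe sets, all higher, with log2 differences of 0.29 to 0.76. Its brightest read 8553, 10713 and 11112 in untreated and 11451, 12911 and 12479 in SHH replicates, the nearest arrays of the groups being close together. The link protein HAPLN3, of a family that joins lecticans to hyaluronan, lay at -0.66 ± 0.15, and the hyaluronan-binding protein HABP4 at -0.42 ± 0.14 (limma adjusted p = 0.602, 0.260 and 0.431 for CD44, HAPLN3 and HABP4).

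Of the 4 lecticans, VCAN and the cartilage proteoglycan aggrecan (ACAN) had a name. ACAN was dimmer than VCAN and stood in the opposite direction to it, with 3 named probe sets at -1.28 to -0.55. The brightest gave 322, 377 and 366 in untreated and 263, 240 and 210 in SHH replicates, short of the threshold (limma adjusted p = 0.271).

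For the building blocks of both polymers, 3 of 18 genes of UDP-sugar supply had a name and none passed. SLC35D1, which carries UDP-glucuronic acid and UDP-N-acetylgalactosamine into the endoplasmic reticulum for chondroitin sulfate synthesis, had 3 named probe sets, all higher, at 0.75 to 1.27. Its brightest read 1945, 1687 and 1675 in untreated and 2883, 3012 and 3390 in SHH replicates, a difference of 0.80 ± 0.13 (limma adjusted p = 0.118, which was 0.00131 under the intensity trend). SLC35D2, a nucleotide sugar transporter of the Golgi, lay at -0.52 ± 0.12 and the hexokinase HK2 at -0.60 ± 0.12.

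Of chondroitin and dermatan sulfate assembly, 4 of 24 genes were named, of which 2 were higher and 2 lower, none past the threshold. The chain-polymerising CHSY1 lay at 0.35 ± 0.15 and the uronyl sulfotransferase UST at 0.38 ± 0.10. B4GALT7, which adds a galactose to the linker between chain and core protein, lay at -0.47 ± 0.14, and CSGALNACT2, which starts the chain, at -0.38 ± 0.12. Of the 18 proteases that cleave versican and their inhibitors, only TIMP3, an inhibitor of ADAMTS proteases, had a name, at -0.44 ± 0.17 (limma adjusted p = 0.476).

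Proteins that bind versican included 7 named of 20, 1 higher and 6 lower. Tenascin-C (TNC), a matrix glycoprotein and ligand of lecticans, had 2 named probe sets, both lower. The brightest fell by 2.10 on the log2 scale, from 2514, 2194 and 2277 to 453, 509 and 649 (limma adjusted p = 0.0423). It had the lowest log2 difference of all 54613 probe sets, and with arrays centred on their medians it did not pass. The other TNC probe set lay at -1.96 and did not pass. The heparin-binding growth factor pleiotrophin (PTN), which also binds chondroitin sulfate, had 3 named probe sets, all lower and all with the x mark. The brightest PTN probe set lay at -0.84 ± 0.10 (limma adjusted p = 0.0649, which was 1.04e-04 under the intensity trend). The fibulins FBLN1 and FBLN2, the first of them bright, lay at -0.27 ± 0.10 and -0.53 ± 0.17, and the integrin chain ITGA4 at -0.38 ± 0.11, and none of these 3 passed.

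Among 34 other proteoglycans 13 had a name, 3 higher and 10 lower. TGFBR3, the membrane proteoglycan betaglycan that presents TGF-beta, had 2 named probe sets, both higher. The brightest, which carries a 3′ mark, rose by 1.72 ± 0.11, from 1481, 1426 and 1313 to 4701, 4923 and 4343 (limma adjusted p = 0.0423). The other lay at 1.58 and did not pass. Asporin (ASPN), a small leucine-rich protein of the matrix, fell by 1.23, from 3038, 3448 and 2989 to 1339, 1328 and 1334 (limma adjusted p = 0.0468), a call that was lost with arrays centred on their medians. OGN, of the same family, went from 345, 310 and 341 to 146, 169 and 139, a difference of -1.06 ± 0.12. The matrix protein ECM2 lay at -0.59 ± 0.11 and the cell surface proteoglycan SDC4 at -0.55 ± 0.10. OGN, ECM2 and SDC4 did not pass (limma adjusted p = 0.0649, 0.173 and 0.177). Under the intensity trend they did (limma adjusted p = 0.00955, 0.0332 and 0.00214).

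**Figure D4:**
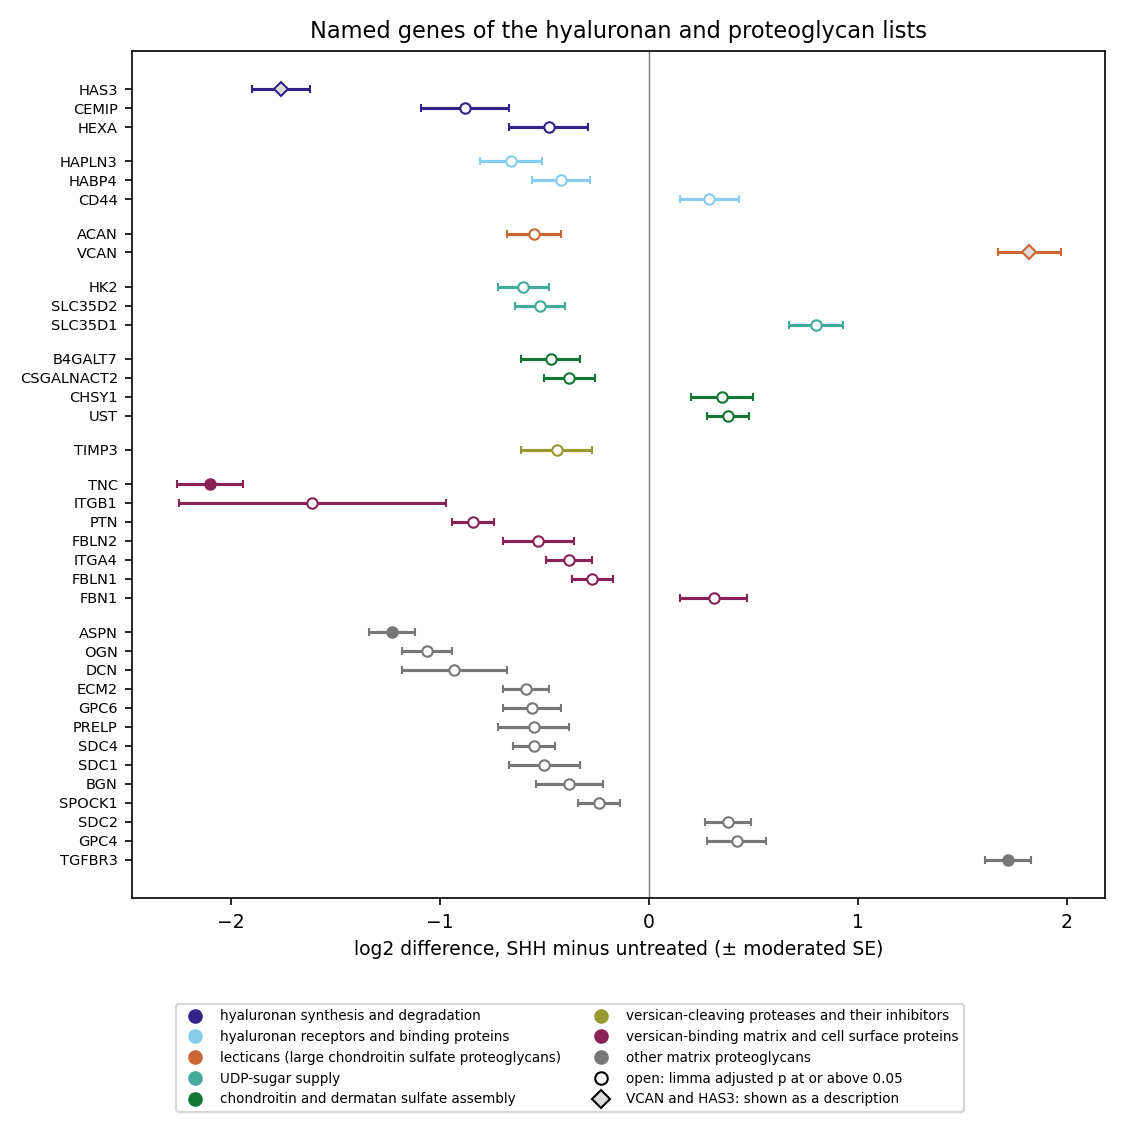
Log2 difference, SHH minus untreated, of the brightest named probe set of each named gene of the 8 lists, with limma's moderated SE as the bar, grouped by list in colour. Filled circles passed limma's adjusted threshold of 0.05, and diamonds are VCAN and HAS3, shown as a description; VCAN at 1.82 and TGFBR3 at 1.72 stand on the right, and TNC at -2.10 and HAS3 at -1.76 on the left.

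The genes whose pattern over the 6 arrays was most like that of VCAN were taken by Pearson correlation of log2 signals with 221731_x_at among 1502 named genes brighter than the median. They were HS6ST1 (0.9996), CLCN3 (0.9978), a gene listed as GARP (0.9969), SARM1 (0.9968) and TGM2 (0.9964). Correlation sees the shape and not the size: HS6ST1, an enzyme that sulfates heparan sulfate, had a log2 difference of only 0.33 ± 0.10, from 2608, 2455 and 2514 to 3143, 3223 and 3200. CLCN3, a chloride exchanger of endosomes, lay at 1.07 ± 0.11 and TGM2, a transglutaminase that crosslinks matrix proteins, at 0.48 ± 0.10. For HAS3 the likest were PRSS35 (0.9995), ZHX2 (0.9977), HSDL2 (0.9970), PLTP (0.9969) and IL6 (0.9961). PRSS35, related to serine proteases, went from 679, 724 and 693 to 290, 286 and 253. The cytokine IL6 gave 342, 376 and 347 in untreated and 204, 202 and 169 in SHH replicates, a difference of -0.84 ± 0.12. These correlations rest on 6 arrays of 2 groups, in which any gene that differs between the groups correlates, and they are descriptions.

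Hedgehog genes and cell markers give the setting. PTCH1, receptor and target of the pathway, had 4 named probe sets, all higher, at 0.95 to 2.64, of which 3 passed. Its brightest rose by 2.64 ± 0.11 (limma adjusted p = 0.0249). GLI1 lay at 2.52 ± 0.38 without passing (limma adjusted p = 0.110). It was dim in untreated cells, with 151, 49.7 and 141 against array medians of 94.4 to 111, and gave 660, 592 and 771 with SHH. The co-receptor GAS1 fell by 1.24 (limma adjusted p = 0.0468) and the co-receptor BOC lay at 0.37 ± 0.11 (0.362). So 2 of the 4 named of 8 passed, where 2.45% of all named genes did, and GAS1 did not with arrays centred on their medians. Under the intensity trend all 4 passed, 3 higher and GAS1 lower, where 39.7% of all named genes passed. Of 12 fibroblast markers 6 had a name, all lower and none past the threshold, with log2 differences of -0.98 (POSTN) to -0.46 (PDGFRB). Under the intensity trend 4 of these 6 passed, all lower, again beside 39.7% of all named genes. A name comes only with an authors' p at or under 0.05, so nothing is read from this count. The summed signals of the 6 were 11463 to 12318 in untreated and 7089 to 7965 in SHH arrays. Such a sum follows the brightest probe sets, here PDGFRB and POSTN, and hardly reflects DCN and COL3A1, whose probe sets the authors mark as intronic. Of 7 smooth muscle markers 2 had a name, in opposite directions. The smooth muscle myosin MYH11 had 2 named probe sets, both with the x mark and higher by 0.45 and 0.94, and neither passed. Its brightest read 889, 764 and 707 in untreated and 1391, 1415 and 1773 in SHH replicates, groups apart. The log2 difference of this probe set was 0.94 ± 0.16 (limma adjusted p = 0.131, which was 0.00304 under the intensity trend). The calponin CNN1 lay at -0.29 ± 0.13 (limma adjusted p = 0.538), and its brighter signal carries the sum of both, 6625 to 7832 in untreated and 6286 to 7195 in SHH arrays. The epithelial keratin KRT18, the leukocyte marker CD14 and the neural marker UCHL1 were the only named genes of their lists of 8, 6 and 5. They lay at -0.42, 0.73 and 0.67, without passing. Under the intensity trend KRT18 and UCHL1 passed (limma adjusted p = 0.0202 and 5.89e-04) and CD14 did not (0.235). None of 5 endothelial markers had a name, and no named marker was at 0 on any array. The part of these markers in the differences of VCAN and HAS3 was not tested.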

How the data were processed

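Per the labels' protocols, total RNA of 6 cultures was made into biotin-labelled cRNA for Affymetrix arrays. The deposited value table gives 1 linear intensity per probe set and array. The 2% trimmed means of 498.1 to 498.2 point to a common scaling by the authors; how probes were summarised and scaled, and which array design was used, no source used here states. Median signals were 94.4 to 111. The number of arrays limits the precision. The authors' deposited Cyber-T table gives a t score, a p-value, a q-value and a log2 fold change per probe set, as untreated minus SHH per the file headers, and the sign was turned here. No per-array column was left unused.

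Of 2411 probe sets in the deposited table of names, 2135 took a name (1633 genes), where they had 1 symbol and its 2 symbol columns did not disagree after updating through the RefSeq gene table of GRCh38.p14. AGC1 was read as ACAN from its title. The brightest named probe set stands for a gene. The fit of SHH against untreated used limma 3.58.1 (R 4.3.3; lmFit, eBayes, two-sided, Benjamini-Hochberg over 54613 probe sets, threshold 0.05) on log2(intensity + 16), without a filter, and the fit was tested on simulated arrays. Other steps used Python 3.11.15. The genes named are all probe sets of VCAN and HAS3, all named genes of a list or, above 5, the 5 with the smallest p, and the 5 most alike in pattern. The members and lists were chosen with earlier results of these data known.

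Replicate numbers come from the sample titles. Arrays with the same number did not deviate together (correlations of -0.0147 to 0.0193). No array pair shared more than 5 identical values. Batch is not recorded. The alternatives tried were array scaling, pseudocount, variance model, replicate block, a filter on dim probe sets and leaving out each array.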

Additional observations from a re-analysis of the deposited data

How the results depend on the processing

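The log2 differences of the 5 VCAN probe sets and of HAS3 kept their direction under all 14 alternatives run on each, and every one stayed within 1 SD between replicates. Aside from leaving out arrays, they ranged from 1.79 to 2.34 for VCAN and from -1.79 to -1.68 for HAS3. With 1 array left out, the brightest VCAN probe set ranged from 1.74 to 1.94 and HAS3 from -1.82 to -1.66. The mean of all 5 VCAN probe sets was 2.05, where the brightest alone gave 1.82.

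Calls depended on the setting, and the cause was not tested. The count of probe sets called was 67, and 34 with arrays centred on their medians, 295 with a pseudocount of 64, 1014 with an intensity trend, 905 with its robust form and 555 over probe sets at or above the median signal. It was 0 with a pseudocount of 1 (limma, 5009 at an unadjusted p under 0.05), 0 with the replicate block (4746) and 0 for each array left out (4411 to 5180). The count of VCAN probe sets called was 0 of 5 and that of HAS3 0 of 1 under the pseudocount of 1, the replicate block and each array left out. With centred arrays it was 4 of 5 and 1 of 1, and under the other 5 alternatives 5 of 5 and 1 of 1. Arrays with the same replicate number did not deviate together, and why the block gave no calls was not tested. With an intensity trend CEMIP, SLC35D1, HK2, UST, CSGALNACT2, PTN, OGN, ECM2 and SDC4 also passed, among others. Only deposited signals were at hand, without detection calls, so background could not be judged per array.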
